A study of Mus musculus with 31 samples.

Results

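NF-kB is a family of transcription factors that bind DNA as dimers. The 10 genes described here encode its 5 subunits (Nfkb1, Nfkb2, Rela, Relb and Rel), 4 proteins of the IkB family (Nfkbia, Nfkbib, Nfkbie and Nfkbiz) and the ubiquitin-editing enzyme A20 (Tnfaip3). They were chosen by symbol and make up 10 of the 27623 genes measured in the colon. All 10 passed the filter on low values, which kept 12812 genes with at least 1 FPKM (fragments scaled to gene length and library depth) in at least 10 libraries.

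In resting cells the typical IkB proteins hold NF-kB dimers in the cytoplasm. Signals from TNF and Toll-like receptors activate the kinase TAK1 and the IkB kinase complex, which marks IkB for destruction and frees dimers such as p50 with RelA. A second, noncanonical route uses the kinase NIK and yields p52 with RelB. Several genes of the inhibitors and subunits are themselves NF-kB targets, so that the pathway feeds back on itself. In the intestine, NF-kB is known both for epithelial survival and for the cytokine response of immune and stromal cells.

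RNA was sequenced from whole mouse colon at 7 days post induction to test the part of TRADD, an adaptor of the TNF receptor, in colitis when the epithelium lacks TAK1. WT mice (11 libraries) were Tak1f/f with Ripk1 D138N/D138N, HO mice (10 libraries) were TAK1 IEC-KO with Ripk1 D138N/D138N, and DHO mice (10 libraries) were TAK1 IEC-KO and Tradd IEC-KO with Ripk1 D138N/D138N. IEC stands for intestinal epithelial cells, and D138N inactivates the kinase of RIPK1, so the WT group also carries a mutant RIPK1. The sources used here give neither the inducing agent, the Cre driver, the age and sex of the mice, nor whether each library is a separate mouse. The p-values therefore measure spread among libraries, which may be technical.

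The depth of the libraries, read from the size of the smallest values, lay between 0.798 and 1.05 times that of WT replicate 1. Tradd averaged 73.2 ± 22.02 FPKM (mean ± SD) over the WT libraries, 22.9 ± 13.7 over the HO libraries and 2.80 ± 0.943 over the DHO libraries. Map3k7, the gene of TAK1, averaged 10.54 ± 1.39, 13.5 ± 1.48 and 11.4 ± 2.85 FPKM, a value over whole tissue and all exons that does not measure the deletion. The libraries also divided, across the genotypes, into 17 with under 1 FPKM of the noncoding RNA Gm15564 (library set 1, with 6 WT, 5 HO and 6 DHO) and 14 above it (library set 2, with 5 WT, 5 HO and 4 DHO). Tradd averaged 92.2 ± 2.97 FPKM in the WT libraries of set 1 and 50.3 ± 2.95 in those of set 2. The labels name no batch. Within genotype groups, 7317 of the 12812 genes tested differed between the sets (limma, Benjamini-Hochberg adjusted p below 0.05). Of the members, Relb (-0.45, log2, set 2 minus set 1), Rela (-0.23) and Nfkbib (-0.24) were lower in set 2. Rel (0.76), Nfkbiz (0.44) and Tnfaip3 (0.51) were higher, and the other members were not called. The epithelial marker genes were present in WT, with summed levels of 6406 to 8236 FPKM over 12 genes, and 3 libraries stood apart from their groups. HO replicate 2 had an epithelial sum of 6772 FPKM, against 9.67 to 1205 in the other 9 HO libraries. Its Tradd level was 59.2 FPKM, and the other 9 HO libraries averaged 18.8 ± 5.36. DHO replicates 8 and 9, both of set 2, had pan-leukocyte sums of 823 and 794 FPKM over 5 genes, against 74.8 to 179 in the other 8 DHO libraries. Calls of the 10 genes that change without these 3 are given both ways, as are those of the other pathway genes named as called in DHO against WT (for the latter chosen after seeing the data).

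Sequences were taken from just upstream of annotated starts of the inhibitor and subunit genes. They tell where letters of the kappaB consensus, the DNA motif that NF-kB dimers bind, stand close to such a start. They are shown because several of these genes are textbook NF-kB targets. RefSeq windows (build GRCm38.p6) were at hand for 7 of the 10 genes, and the 250 bases before each start were searched on both strands for the consensus by name, counting overlapping matches. It was found for 5 genes (Nfkb2, Rel, Nfkbia, Nfkbie and Tnfaip3), and the letters were not in the windows of Rela and Nfkbib. Over all windows of the same length, 7.25% of 32851 windows and 8.23% of 27025 genes held it. The 150 bases before the start are printed 5′ to 3′ on the strand of the gene, with the matches in capitals, and a match is a description of letters, not a bound site.
Nfkbia (chr12:55492648-55492797, minus strand): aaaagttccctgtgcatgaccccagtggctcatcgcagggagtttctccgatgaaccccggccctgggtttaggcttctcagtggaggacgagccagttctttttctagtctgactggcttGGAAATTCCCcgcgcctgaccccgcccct
Nfkbie (chr17:45555550-45555699, plus strand): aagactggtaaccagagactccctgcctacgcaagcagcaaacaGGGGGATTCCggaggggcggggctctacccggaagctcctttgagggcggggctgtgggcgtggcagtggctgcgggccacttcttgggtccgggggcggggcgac
Tnfaip3, first of 2 starts (chr10:19015411-19015560, minus strand): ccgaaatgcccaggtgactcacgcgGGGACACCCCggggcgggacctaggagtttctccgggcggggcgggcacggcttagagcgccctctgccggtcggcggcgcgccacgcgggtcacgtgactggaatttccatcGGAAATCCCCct
Rel (chr11:23770970-23771119, minus strand): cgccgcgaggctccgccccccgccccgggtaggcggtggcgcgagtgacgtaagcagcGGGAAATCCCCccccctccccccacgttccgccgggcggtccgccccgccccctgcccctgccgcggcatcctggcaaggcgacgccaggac
Nfkb2, first of 3 starts (chr19:46304587-46304736, plus strand): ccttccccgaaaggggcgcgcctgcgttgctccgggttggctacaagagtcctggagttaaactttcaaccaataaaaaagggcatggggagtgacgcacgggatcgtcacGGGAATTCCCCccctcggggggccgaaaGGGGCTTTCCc
Counted from the start that each window precedes, the match began at -29 in Nfkbia and at -106 in Nfkbie. Tnfaip3 had matches at -125 and -12, Rel had overlapping matches at -92 and -91, and Nfkb2 had overlapping matches at -39 and -38 and another at -11. These positions are for the starts shown. All 3 Nfkb2 starts lie inside the RefSeq span of the gene, 46300994 to 46312400, and not at its edge. Of the starts not printed, the other 2 of Nfkb2 had a match each, at -236 and at -225, and the other start of Tnfaip3 had none.

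Without epithelial TAK1, 9 of the 10 genes were higher in the colon, and Relb was the exception. Of the 12812 genes tested, 33.0% were called higher in HO than in WT (limma, Benjamini-Hochberg adjusted p below 0.05). Relb was called higher as well with library set as a term in the fit, among 10004 genes called in either direction. The inhibitors Nfkbie, Nfkbia, Nfkbiz and Tnfaip3 rose most, by log2 fold changes of 3.23, 2.996, 2.46 and 2.38, and the 4 called subunits rose by 1.13 to 1.58. For all 9, every HO library lay above every WT library, which held for 16.1% of the genes tested. In the colon that also lacked epithelial TRADD, all 10 genes were lower than in HO, where 29.7% of the genes tested were called lower. DHO and WT differed past the threshold for Nfkbiz and Nfkbib, both higher in DHO, with 12.5% of the genes called higher. With library set as a term in the fit, Rela and Rel were also called higher and Relb lower, among 35.5% of genes called in either direction. The 3 comparisons share libraries, HO being in the first and second. All fold changes are on the log2(FPKM + 0.5) scale, on which the median of all tested genes was -0.06 in HO against WT, 0.10 in DHO against HO and 0.02 in DHO against WT. In whole tissue, fewer cells of a type and less RNA per cell cannot be told apart.

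**Figure D1:**
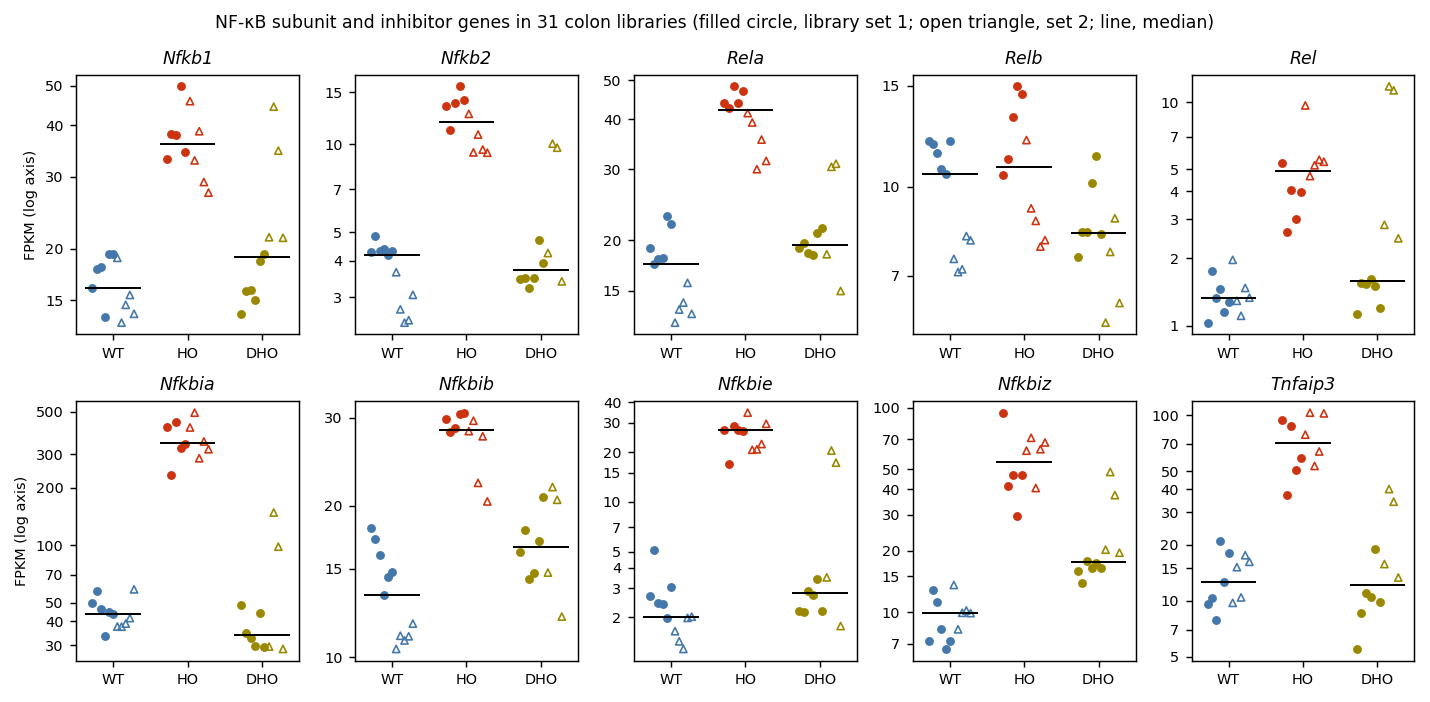
FPKM of the 10 genes (one panel each, log axis) in the 11 WT, 10 HO and 10 DHO libraries, with filled circles for library set 1, open triangles for set 2 and a line at the group median. In 9 panels all HO points lie above all WT points, and 2 open DHO triangles, replicates 8 and 9, stand above the other DHO points in most panels.

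In WT colon Nfkbia had the highest level per gene length, 44.6 ± 8.16 FPKM (SD, n = 11), and stood above the next gene, Rela, in all 11 libraries. Rela (16.95 ± 3.55) and Nfkb1 (16.4 ± 2.41) did not separate, Rela being the higher of the pair in 6 of 11 libraries. Nfkbib (13.5 ± 2.76) and Tnfaip3 (13.5 ± 4.28) followed, again with Nfkbib higher in 6 of 11, and then Relb (9.70 ± 2.07) and Nfkbiz (9.57 ± 2.31), with Relb higher in 5 of 11. Those 5 were the WT libraries of set 1 other than replicate 2, and Nfkbiz was the higher in every WT library of set 2. Nfkb2 (3.70 ± 0.863), Nfkbie (2.37 ± 1.06) and Rel (1.38 ± 0.2798) were the lowest, and each stood above the next in 10 of 11 libraries. In HO the order changed below Nfkbia: by mean FPKM Tnfaip3 and Nfkbiz came before Rela and Nfkb1. Tnfaip3 was above Nfkbiz in 8 of 10 HO libraries and Rela above Nfkb1 in 7 of 10. Nfkbiz was above Rela in 6 of 10, namely in every HO library of set 2 and, of set 1, in replicate 1 alone. In the same group Nfkbie, ninth in WT, was seventh, above Nfkb2 in all 10 libraries. Rel remained last by mean FPKM in HO, as it was in WT and DHO, although in DHO Nfkb2 was above it in only 8 of 10 libraries.

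Among the subunits, RelA and p50 form the dimer most often named for the canonical pathway. Rela (chromosome 19, 5637442 to 5648134), which carries a transactivation domain, was at 12.5, 17.4 and 23.01 FPKM in WT (lowest, median and highest library). In HO these values were 30.03, 42.01 and 48.2, and in DHO 14.98, 19.5 and 30.99. The HO and WT ranges were apart, whereas DHO overlapped both. Rela rose by 1.24 (SE 0.124, adjusted p = 2.38e-10) in HO over WT and fell by 0.92 (SE 0.127, adjusted p = 1.52e-07) from HO to DHO. Its difference between DHO and WT was 0.32 (SE 0.124, adjusted p = 0.0656), and 0.30 (adjusted p = 0.0370) with library set as a term.

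Nfkb1 (chromosome 3, 135584655 to 135691969), which encodes the precursor p105 of p50, was at 13.2, 16.1 and 19.5 FPKM over the WT libraries, 27.4, 36.1 and 49.8 over the HO libraries and 13.9, 19.1 and 44.5 over the DHO libraries. All HO libraries were above all WT libraries, and 8 of the 10 DHO libraries were below all HO libraries. The change was 1.13 (SE 0.154, adjusted p = 1.10e-07) for HO over WT and -0.80 (SE 0.158, adjusted p = 4.43e-05) for DHO over HO. For DHO over WT it was 0.33 (SE 0.154, adjusted p = 0.122).

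The noncanonical subunits did not move together. Nfkb2 (chromosome 19, 46300994 to 46312400) encodes p100, the precursor of p52 that also acts as an inhibitor. It was at 2.46, 4.18 and 4.86 FPKM over the WT libraries, 9.34, 11.9 and 15.7 over the HO libraries and 3.23, 3.70 and 10.03 over the DHO libraries. It rose by 1.58 (SE 0.172, adjusted p = 1.32e-09) in HO and fell by 1.29 (SE 0.176, adjusted p = 1.40e-07) from HO to DHO. Of its exon bases 18.1% are shared with genes on the other strand, among them Psd, at 5.86 ± 2.64 FPKM in WT and 3.08 ± 1.68 in HO, and the strand setting of the counts is not given in the sources used here. Relb (chromosome 7, 19606217 to 19629438), the partner of p52, was at 7.11, 10.51 and 12.03 FPKM over the WT libraries, 7.87, 10.8 and 14.95 over the HO libraries and 5.80, 8.31 and 11.3 over the DHO libraries. The 3 ranges overlapped. Its difference between HO and WT was 0.17 (SE 0.131, adjusted p = 0.241), and 0.19 (adjusted p = 0.0390) with library set as a term in the fit. Relb fell by 0.39 (SE 0.134, adjusted p = 0.0120) from HO to DHO, the smallest of the 10 differences in that comparison. From WT to DHO its difference was -0.21 (SE 0.131, adjusted p = 0.248), and -0.24 (adjusted p = 0.0289) with library set as a term.

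Rel (chromosome 11, 23736847 to 23770969), which encodes c-Rel, a subunit best known from lymphoid and myeloid cells, was at 1.03, 1.33 and 1.97 FPKM in WT and 2.62, 4.95 and 9.67 in HO. In DHO it was at 1.13, 1.58 and 11.8. HO replicate 2 was the lowest HO library, and DHO replicates 8 and 9, at 11.8 and 11.3, were above all HO libraries. Rel rose by 1.48 (SE 0.289, adjusted p = 3.73e-05) in HO. It was lower in DHO than in HO by a change of -0.76 (SE 0.296, adjusted p = 0.0230), a call lost without HO replicate 6 (-0.66, adjusted p = 0.0514) and in a fit to the libraries of these 2 groups alone (adjusted p = 0.0651). With HO replicate 2 and DHO replicates 8 and 9 left out the difference was -1.34 (adjusted p = 1.02e-08). Between DHO and WT it was 0.71 (SE 0.289, adjusted p = 0.0745), and 0.75 (adjusted p = 0.0169) with library set as a term.

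The typical inhibitors rose by unequal amounts. Nfkbia (chromosome 12, 55489409 to 55492647) encodes IkB-alpha, the inhibitor that is degraded and made again within a single round of signalling. It was at 33.5, 43.5 and 58.8 FPKM over the WT libraries, 234, 344 and 495 over the HO libraries and 28.7, 33.8 and 148 over the DHO libraries. No HO library overlapped WT or DHO, and Nfkbia was the only member with DHO wholly below HO, as were 7.39% of the genes tested. Its change was 2.996 (SE 0.22, adjusted p = 4.03e-13) for HO over WT and -2.995 (SE 0.225, adjusted p = 1.53e-12) for DHO over HO. Between DHO and WT it was 0.00067 (SE 0.22, adjusted p = 0.999), although 2 DHO libraries lay above all WT libraries and 5 below all of them.

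Nfkbie (chromosome 17, 45555700 to 45563169), the gene of IkB-epsilon, was at 1.29, 2.02 and 5.13 FPKM in WT and 17.04, 27.03 and 34.6 in HO. In DHO it was at 1.77, 2.82 and 20.4. The change in HO was 3.23 (SE 0.306, adjusted p = 8.16e-11), and DHO was lower than HO by a change of -2.53 (SE 0.313, adjusted p = 2.29e-08). Nfkbie had the largest fold change of the 10 genes in HO and Nfkbia the largest gain in FPKM.

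Nfkbib (chromosome 7, 28758251 to 28766644), the gene of IkB-beta, was at 10.4, 13.3 and 18.1 FPKM over the WT libraries, 20.4, 28.4 and 30.7 over the HO libraries and 12.04, 16.6 and 21.8 over the DHO libraries. It rose by 1.02 (SE 0.111, adjusted p = 1.54e-09) in HO, less than any other called member, and fell by 0.69 (SE 0.114, adjusted p = 3.22e-06) from HO to DHO. It remained higher in DHO than in WT (0.32, SE 0.111, adjusted p = 0.0370), with 3 of 10 DHO libraries above all WT libraries. That call was lost without HO replicate 2 and DHO replicates 8 and 9 (0.24, adjusted p = 0.155), without DHO replicate 8 alone (0.28, adjusted p = 0.0822) and under several other settings. Of its exon bases 16.4% are shared with genes on the other strand, among them Sirt2, at 21.8 ± 1.76 FPKM over the WT libraries, 31.8 ± 5.81 over HO and 19.2 ± 2.18 over DHO.

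Nfkbiz (chromosome 16, 55811375 to 55838954) encodes IkB-zeta, an atypical family member that acts in the nucleus with p50 and is needed for a set of secondary response genes. It was at 6.62, 9.91 and 13.6 FPKM over the WT libraries, 29.7, 54.4 and 94.7 over the HO libraries and 13.9, 17.6 and 48.6 over the DHO libraries. The WT range stood below both others, and 8 of 10 DHO libraries were below all HO libraries. Nfkbiz rose by 2.46 (SE 0.198, adjusted p = 2.60e-12) in HO and fell by 1.36 (SE 0.203, adjusted p = 6.21e-07) from HO to DHO. It stayed higher in DHO than in WT by 1.098 (SE 0.198, adjusted p = 0.000607), and all 10 DHO libraries were above all 11 WT libraries, as held for 0.468% of the genes tested. The 8 DHO libraries other than replicates 8 and 9 lay between 13.9 and 20.2 FPKM, still above WT, and the difference with those 2 and HO replicate 2 left out was 0.84 (adjusted p = 0.00146).

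Tnfaip3 (chromosome 10, 19000910 to 19015410) encodes A20, which edits ubiquitin chains on signalling proteins upstream of the IkB kinase and so limits NF-kB activation. It was at 7.85, 12.6 and 20.9 FPKM over the WT libraries, 37.4, 71.1 and 103 over the HO libraries and 5.51, 12.2 and 40.02 over the DHO libraries. Of the DHO libraries 9 of 10 were below all HO libraries, and the tenth, replicate 8 at 40.02, was above HO replicate 2 alone. Its change was 2.38 (SE 0.260, adjusted p = 1.51e-09) in HO over WT and -2.26 (SE 0.266, adjusted p = 9.38e-09) in DHO over HO. Between DHO and WT it was 0.12 (SE 0.260, adjusted p = 0.770).

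**Figure D2:**
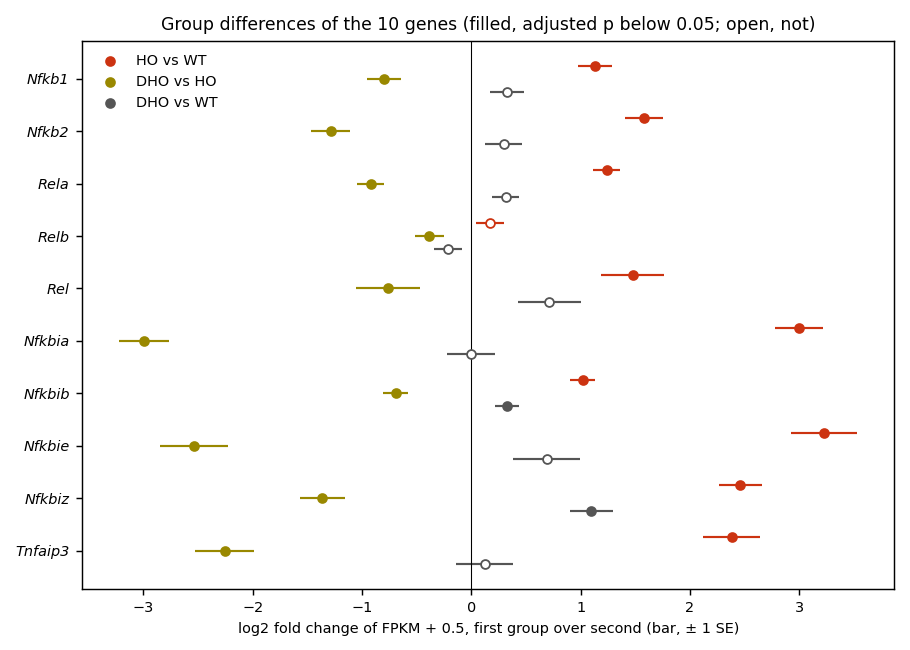
Log2 fold changes of FPKM + 0.5 (x axis) for each gene (y axis) in HO over WT, DHO over HO and DHO over WT, with bars of 1 SE and filled points where the adjusted p was below 0.05. The HO changes run from 0.17 for Relb to 3.23 for Nfkbie, the DHO over HO changes are all below 0, and Nfkbib and Nfkbiz are the filled points for DHO over WT.

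The DHO group was not uniform. In replicates 8 and 9, Nfkbia was at 148 and 98.4 FPKM against 28.7 to 48.6 in the other 8 libraries, and Nfkbie at 20.4 and 17.3 against 1.77 to 3.49. Nfkb2 was at 10.03 and 9.71 FPKM in the pair and at 3.23 to 4.70 in the others. Relb, at 7.70 and 8.82 FPKM in the pair, lay within the range of the others, 5.80 to 11.3. Of the DHO libraries of their own set, replicates 7 and 10 had less Relb, at 5.80 and 6.28 FPKM. In replicates 8 and 9 Ptprc, the gene of the leukocyte antigen CD45, was at 55.0 and 54.2 FPKM against 2.23 to 11.5 in the other 8. Their summed B cell markers were at 144 and 249 FPKM (15.7 to 64.6 in the other 8) and T cell markers at 36.3 and 46.0 (9.32 to 16.6). Their neutrophil sums were 4702 and 1530 FPKM (243 to 437 in the other 8), below every HO library (6769 to 54402). The part of these differences in the NF-kB genes was not tested. Tradd was low in both, at 3.89 and 3.76 FPKM. Replicates 7 and 10, also of set 2, exceeded every DHO library of set 1 for 3 members. These were Rel (2.83 and 2.46 FPKM against 1.13 to 1.61), Nfkb1 (21.4 and 21.3 against 13.9 to 19.4) and Nfkbiz (20.2 and 19.6 against 13.9 to 17.8). For no other member did both exceed set 1, and for Relb both were below it.

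With HO replicate 2 and DHO replicates 8 and 9 left out, all 10 genes were again lower in DHO than in HO, with changes from -0.38 for Relb to -3.42 for Nfkbia, as were 31.6% of all genes. The change of Nfkbie was then -3.13, of Tnfaip3 -2.70, of Nfkb2 -1.56 and of Nfkb1 -1.02. Against WT, 2 members were then called, with 13.6% of all genes called in either direction. Nfkbiz was higher, as above, and Nfkbia was lower in DHO (-0.36, adjusted p = 0.0469). DHO replicates 8 and 9 held the 2 highest Nfkbia levels of their group, so leaving them out by itself lowers the DHO mean. With all libraries the Nfkbia difference was 0.00067 (limma, adjusted p = 0.999). The 8 remaining DHO libraries had 34.7 ± 7.64 FPKM of Nfkbia (SD, n = 8), against 44.6 ± 8.16 in WT.

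**Figure D3:**
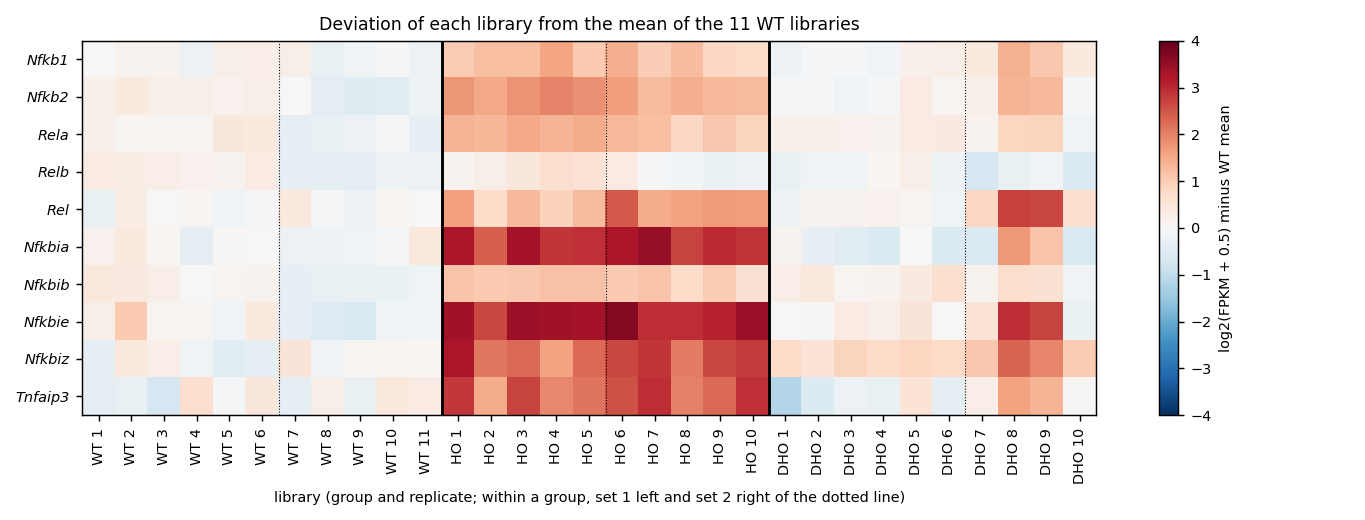
Difference of log2(FPKM + 0.5) in each library (columns, by group and replicate) from the mean of the 11 WT libraries for each gene (rows), red above and blue below. HO columns are red for all genes but Relb, DHO replicates 8 and 9 are red for all but Relb, and the Nfkbiz row is red across the DHO columns. The WT mean pools both library sets, and Relb averaged 11.4 FPKM in the WT libraries of set 1 and 7.61 in those of set 2.

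The increase in HO over WT was found in both library sets, and the decrease in DHO differed between them for some genes. In set 1 alone and in set 2 alone, the same 9 members were higher in HO than in WT, by 0.91 to 2.94 and by 1.15 to 3.57, where 32.0% and 31.4% of all genes were called higher. The difference of that effect between the sets was called for none of the 12812 genes in limma by an interaction term (377 had an unadjusted p below 0.05). DHO was lower than HO for all 10 members in set 1 and for 8 in set 2, where Nfkb1 (-0.24, adjusted p = 0.367) and Rel (-0.06, adjusted p = 0.909) did not pass. Of all genes 31.8% were called lower in set 1 and 26.5% in set 2. The difference between the sets was called for Nfkb1 (0.97, adjusted p = 0.0310) and Nfkb2 (1.06, adjusted p = 0.0307), and for 4.43% of all genes.

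Against WT, no member was called in DHO in set 1 alone, where 0.531% of all genes were called in either direction and Nfkbiz had a difference of 0.88 (adjusted p = 0.0746). In set 2 alone 7 members were higher, with 21.1% of all genes called higher. They were Nfkb1 (0.92), Nfkb2 (0.99), Rela (0.70), Rel (1.68), Nfkbib (0.59), Nfkbie (1.82) and Nfkbiz (1.46). The difference between the sets was called for 5 members and for 9.80% of all genes. With DHO replicates 8 and 9 left out, which leaves 2 DHO libraries in set 2, no member and no gene was called in the interaction test for any of the 3 comparisons (551, 1180 and 762 genes at an unadjusted p below 0.05).

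**Figure D4:**
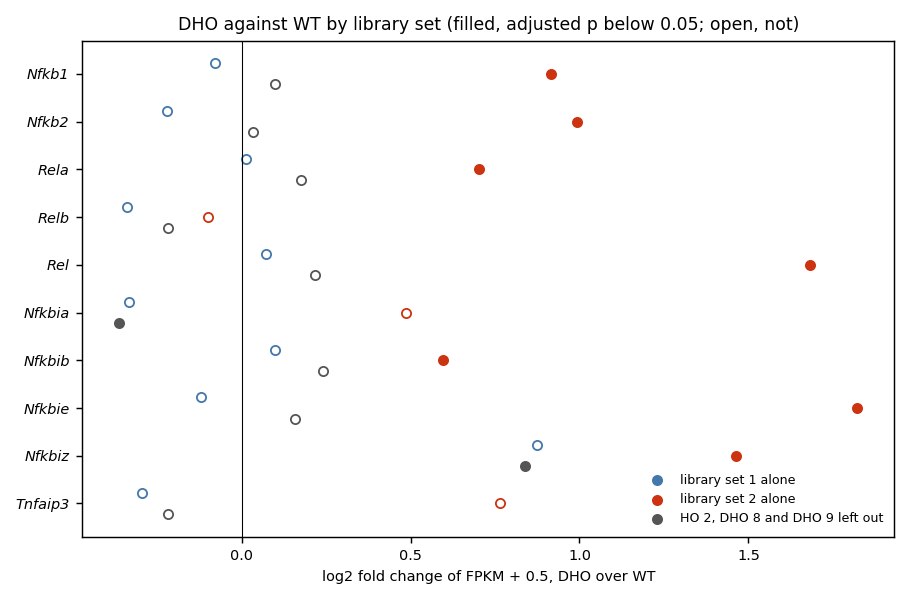
Log2 fold change of FPKM + 0.5 in DHO over WT (x axis) for each gene (y axis) in library set 1 alone, in set 2 alone, and with HO replicate 2 and DHO replicates 8 and 9 left out, filled where the adjusted p was below 0.05. Points of set 2 lie to the right for all 10 genes, with 7 filled, and those of set 1 lie between -0.34 and 0.10 except Nfkbiz at 0.88.

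In ratios between members within a library its scaling largely cancels, although the added 0.5 FPKM keeps some dependence on it for genes of low level such as Rel. The log2 ratios of 6 pairs were compared over the 3 comparisons with two-sided permutation tests of 100000 resamples, adjusted over the 18 tests. Nfkbia over Rela, the inhibitor set against its main target, had a mean of 1.37 ± 0.36 (SD) over the 11 WT libraries, 3.13 ± 0.334 over the 10 HO libraries and 1.06 ± 0.550 over the 10 DHO libraries. HO was above WT and above DHO in every library, by 1.76 and 2.07 (permutation test, adjusted p = 0.00012 for both, from the smallest p these resamples can give). Nfkbie over Nfkbib rose from -2.33 ± 0.290 in WT to -0.12 ± 0.356 in HO (permutation test, adjusted p = 0.00012) and was at -1.97 ± 1.001 in DHO, below HO by a difference of -1.84 (permutation test, adjusted p = 0.000926). IkB-epsilon transcripts thus went from well below those of IkB-beta per gene length to a similar level in HO.

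Relb over Rela fell in HO, from -0.78 ± 0.162 in WT to -1.84 ± 0.184, with no overlap of the groups (permutation test, adjusted p = 0.00018). In DHO it was -1.31 ± 0.359, higher than in HO (adjusted p = 0.00168, permutation test) and lower than in WT (adjusted p = 0.00084, permutation test). Nfkb2 over Nfkb1, the noncanonical against the canonical precursor, was -2.03 ± 0.258 in WT, -1.57 ± 0.209 in HO and -2.06 ± 0.204 in DHO, and HO differed from both others (permutation test, adjusted p = 0.00099 and 0.000216). Tnfaip3 over Nfkbia was lower in HO than in WT by -0.62 (permutation test, adjusted p = 0.00874) and than in DHO, where the difference of DHO from HO was 0.74 (permutation test, adjusted p = 0.00623). Neither of these passed in either library set alone (exact permutation test, adjusted p from 0.0635 to 0.135). Rel over Rela did not pass in any comparison, with differences of 0.24, 0.16 and 0.40 (permutation test, adjusted p = 0.363, 0.677 and 0.275). With pseudocounts of 0.1 and 1 the first was 0.45 and 0.056 and the second 0.041 and 0.26, none past the threshold. Without HO replicate 2 and DHO replicates 8 and 9, Nfkbia over Rela was also lower in DHO than in WT (-0.54, exact permutation test, adjusted p = 0.00372). With all libraries that difference was -0.31 (permutation test, adjusted p = 0.204). The highest DHO ratio was 2.27 with all libraries and 1.32 after the removal, so the removal by itself lowers the DHO mean.

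**Figure D5:**
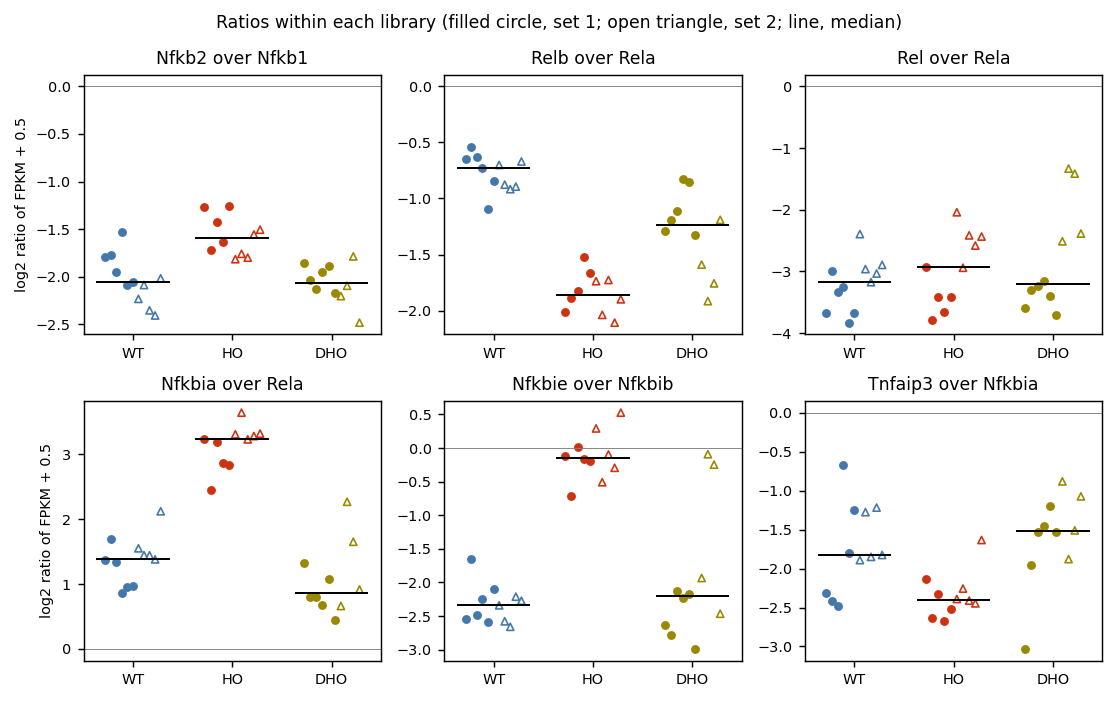
Log2 ratios of FPKM + 0.5 of 6 gene pairs within each library (y axis) by group, with filled circles for library set 1, open triangles for set 2 and a line at the median. Nfkbia over Rela and Nfkbie over Nfkbib are higher in HO than in every WT library, and Relb over Rela is lower.

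Marker genes of other cells moved over the same libraries. For the counts below, 33.0% of the 12812 genes tested were called higher in HO than in WT and 9148 in either direction. All 12 epithelial genes were lower in HO than in WT, with summed levels of 9.67 to 6772 FPKM in HO (median 137), 6406 to 8236 in WT (median 7390) and 4759 to 9593 in DHO (median 8186). Of 11 neutrophil genes tested, 10 were higher in HO and Ly6g was lower, and the sum over 12 genes was 149 to 335 FPKM over WT, 6769 to 54402 over HO and 243 to 4702 over DHO. Most of the WT sum was Ly6g, at a median of 217 FPKM, and the defining genes S100a8 and Cxcr2 were at medians of 1.09 and 0.0093 there, with Mmp8, Ngp, Retnlg and Mpo at a median of 0. Monocyte and macrophage genes were higher in 11 of 12 (262 to 606 FPKM over WT, 2697 to 6123 over HO, 499 to 2447 over DHO). The 5 pan-leukocyte genes were higher in HO (43.5 to 154 FPKM over WT, 555 to 1949 over HO, 74.8 to 823 over DHO). Fibroblast genes were higher in 7 of 8 (488 to 1063 FPKM over WT, 1225 to 3751 over HO, 348 to 1884 over DHO), as were endothelial genes (38.8 to 70.2, 151 to 386 and 30.8 to 142). All 8 smooth muscle genes were lower (2495 to 8500, 716 to 3064 and 680 to 4372). The T cell list rose in 2 of 6 genes tested, and the B cell list fell in 3 of 9. HO replicate 2, a library of set 1, had an epithelial sum within the pooled WT range but below the WT libraries of its own set (7390 to 8236 FPKM). It had 234 FPKM of Nfkbia and 17.04 of Nfkbie, both above every WT library, with a pan-leukocyte sum of 555 FPKM. The part of these cell types in the levels of the NF-kB genes was not tested.

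Genes of the kinases and ubiquitin ligases that act on IkB or upstream of it, with their adaptors, went in both directions. Of these 14 genes, 5 were higher in HO than in WT, 4 lower and 5 not called, with a median of -0.11 and changes from -0.74 to 0.81. Among the 5 higher was the targeted gene Map3k7 (0.35, SE 0.103, adjusted p = 0.00362), whose level over whole tissue does not measure the deletion. Over all 12812 genes tested, 33.0% were called higher in that comparison and 9148 in either direction. Ikbkb, which encodes the kinase of IkB, rose from 9.31 ± 0.982 FPKM (SD, n = 11) to 16.7 ± 1.59 (n = 10), by 0.81 (SE 0.0998, adjusted p = 1.57e-08), and was at 11.8 ± 3.30 in DHO. Traf6, a ubiquitin ligase of Toll-like receptor signalling, rose by 0.64 (SE 0.147, adjusted p = 0.000250). Fbxw11, a subunit of the ligase that recognises phosphorylated IkB, was lower by -0.31 (SE 0.0754, adjusted p = 0.000603). DHO against HO gave 5 higher, 3 lower and 6 not called, and DHO against WT gave Ikbkb higher (0.30, SE 0.0998, adjusted p = 0.0338) and 13 not called. Over all genes, 29.7% were called lower in DHO than in HO and 12.5% higher in DHO than in WT. In either direction 8805 and 2719 were called. The same figures over all genes apply to the lists that follow, with all libraries in the fit. Ikbkb was not called without HO replicate 2 and DHO replicates 8 and 9 (0.14, adjusted p = 0.172).

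Of 16 genes of atypical IkB proteins, partners of A20 and other regulators of NF-kB, 7 were higher in HO, 1 lower and 8 not called (median 0.10). Zc3h12a, the gene of the RNase Regnase-1, had mean levels of 7.09 ± 0.823 FPKM over WT, 52.2 ± 9.86 over HO and 16.8 ± 9.85 over DHO, a rise of 2.78 (SE 0.175, adjusted p = 1.93e-14). Like Nfkbiz it was also higher in DHO than in WT (1.05, SE 0.175, adjusted p = 0.000313). Nfkbid, the gene of the nuclear protein IkB-NS, rose by 2.29 (SE 0.221, adjusted p = 1.11e-10), and N4bp1, a ubiquitin-binding suppressor of NF-kB signalling, by 2.03 (SE 0.159, adjusted p = 1.52e-12). Tnip3, an A20-binding protein, had another course, with 7.48 ± 3.86 FPKM over WT, 7.41 ± 2.25 over HO and 16.3 ± 6.71 over DHO, and its DHO level was above that of HO (1.04, SE 0.242, adjusted p = 0.000334) and that of WT (1.12, SE 0.236, adjusted p = 0.00222). In DHO against HO 3 of the 16 were higher and 7 lower, and in DHO against WT 3 were higher and 1 lower. Without the 3 libraries that stood apart, Zc3h12a and Tnip3 were still called in DHO against WT (0.77, adjusted p = 8.89e-05, and 0.97, adjusted p = 0.00806), with 3 of the list higher and 2 lower.

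Of 15 noncanonical signalling genes tested (17 in the list), 12 were higher in HO, 1 lower and 2 not called (median 1.204). The ligand genes Tnfsf11, of RANKL, and Tnfsf14, of LIGHT, averaged 0.472 ± 0.269 and 0.131 ± 0.0764 FPKM over WT and 18.3 ± 9.97 and 7.20 ± 2.76 over HO. Their changes were 4.17 (SE 0.407, adjusted p = 1.48e-10) and 3.52 (SE 0.263, adjusted p = 5.74e-13). Tnfrsf11a, which encodes RANK, the receptor of RANKL, went the other way, from 15.1 ± 3.08 to 4.56 ± 1.21 FPKM (-1.63, SE 0.166, adjusted p = 3.43e-10), and was at 14.4 ± 4.39 in DHO. In DHO against HO 2 genes of this list were higher and 10 lower. Tnfrsf12a, the receptor Fn14, was the 1 gene higher in DHO than in WT (1.001, SE 0.346, adjusted p = 0.0382), and it was not called without the 3 libraries (0.57, adjusted p = 0.182).

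Of 23 textbook NF-kB target genes tested (24 in the list), 22 were higher in HO and 1 was not called, with a median of 4.15. Sod2, the mitochondrial superoxide dismutase, had mean levels of 23.8 ± 1.92 FPKM over WT, 236 ± 41.4 over HO and 34.9 ± 24.3 over DHO (3.26, SE 0.182, adjusted p = 1.47e-15 in HO over WT). Sele, the endothelial adhesion molecule E-selectin, was at 0.0112 ± 0.0194 FPKM in WT and 7.86 ± 2.67 in HO. Tlr2, a receptor of bacterial lipoproteins, rose by 3.38 (SE 0.245, adjusted p = 3.10e-13). In DHO against HO none of the 23 was higher and 21 were lower, and in DHO against WT 8 were higher. Among these 8 were Bcl2a1d, a survival factor of the Bcl2 family (1.75, SE 0.358, adjusted p = 0.00185), which has close paralogs whose reads may be shared, and the transcription factor Irf1 (0.88, SE 0.197, adjusted p = 0.00334). Without the 3 libraries 5 of the 23 were higher, Bcl2a1d (1.15, adjusted p = 0.00139) and Irf1 (0.72, adjusted p = 0.0173) among them. Of 6 targets named for the noncanonical route, 3 were higher in HO, 1 lower and 2 not called (median 0.97). The lymphoid chemokine Cxcl13 had mean levels of 9.02 ± 3.55 FPKM over WT, 523 ± 338 over HO and 32.6 ± 40.9 over DHO, a rise of 5.57 (SE 0.470, adjusted p = 6.94e-12). Madcam1, a mucosal vascular adhesion molecule, rose by 3.37 (SE 0.343, adjusted p = 3.50e-10), and Cxcl12, a stromal chemokine, by 1.66 (SE 0.236, adjusted p = 2.26e-07). The DHO mean of Cxcl13 was 13.5 ± 8.49 FPKM (SD, n = 8) without replicates 8 and 9. None of the 6 was called in DHO against WT, with or without the 3 libraries.

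The genes most like each member were found over the 31 libraries by the root mean square difference of log2 profiles, each centred on its own mean. For Nfkbia they were Sod2 (0.290), Ifnar2 (0.324) and Ifitm2 (0.333), against a spread of Nfkbia itself of 1.51 (SD over libraries). For Nfkbie they were Pik3cd (0.222), Vav1 (0.2801) and Limd2 (0.285), against 1.57. Sod2 is also a target gene listed above, and Pik3cd and Vav1 are signalling genes best known from leukocytes. The nearest genes of the other members follow, each with its distance and the spread of the member. They were Grk2 for Rela (0.140 against 0.599), Prkar1a for Nfkb1 (0.212 against 0.594) and Gmip for Nfkb2 (0.215 against 0.796). For Rel it was Baz1a (0.301 against 0.905), for Nfkbib Rab5c (0.169 against 0.496), for Nfkbiz Cd47 (0.366 against 1.12) and for Tnfaip3 Rab31 (0.363 against 1.26). For Relb it was Ip6k1 (0.177), a distance large beside the small spread of Relb (0.330). The libraries share group and library set, so these distances are a description of the profiles.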

How the data were processed

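Per the labels' protocols, colon RNA was taken up in TRIzol and its libraries were built from a VAHTS Universal V6 kit. The submitters' processing notes name fastp, HISAT2, HTSeq and mm10, and the authors deposited 1 table of FPKM values. Versions, annotation and strand setting: not given in the sources used here. FPKM are shares of a library, so a few abundant genes can lower all others, and the 10 most abundant genes held 9.36% to 26.2% of the summed FPKM.

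The 10 genes, the gene lists and the library sets were chosen with earlier results of these data known. Values of log2(FPKM + 0.5) for 12812 genes in all 31 libraries were modelled with limma 3.58.1 (R 4.3.3), with 1 mean per group, a variance trend and robust moderation, and p-values were adjusted by Benjamini-Hochberg within a comparison at 0.05. The fit was tested on simulated data for HO against WT alone, with no shift between library sets. That test does not cover DHO against WT. Ratios were tested in SciPy 1.17.1. Genes of each pathway list were named by the smallest p, up to 3 in HO against WT and 2 in DHO against WT. Of the marker list of T cells, Trbc1 and Trbc2 were not analysed here. No library duplicated another (Pearson r at most 0.996 between any pair). Gene positions are from RefSeq on GRCm38.p6, the assembly of mm10, and shared exon bases from GENCODE on GRCm38. The file gives no counts, so no counting intervals were computed.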

Additional observations from a re-analysis of the deposited data

Results flagged for a closer look

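The effect of a genotype differed between the library sets past the threshold for these members, in an interaction test in limma adjusted over 12812 genes (30 tests of members, 7 called). Each value is the log2 fold change in set 2 minus that in set 1. In DHO over HO it was 0.97 for Nfkb1 and 1.06 for Nfkb2. In DHO over WT it was 0.996 for Nfkb1, 1.22 for Nfkb2, 0.69 for Rela, 1.61 for Rel and 1.94 for Nfkbie (adjusted p from 0.0221 to 0.0312). With DHO replicates 8 and 9 left out, an alternative chosen after seeing the data, the differences were 0.53 and 0.43 in DHO over HO and 0.56, 0.58, 0.26, 0.64 and 0.60 in DHO over WT, with none called. In the 20 groups of 10 libraries tested (10 genes in HO and in DHO), no single library stood apart by its gap to the nearest other on the log2 scale, a test that a pair of high libraries escapes.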

How the results depend on the processing

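In HO against WT, the calls of the 9 members and the absence of a call for Relb held under every alternative except library set as a term, which called Relb, and a filter of 5 FPKM, which left Rel untested. In DHO against HO, 9 or 10 members were called without any 1 library, and the exceptions were Rel without HO replicate 6 or with 2 groups in the fit, and Nfkb1 and Rel in set 2 alone.

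DHO against WT depended most on the settings. Against 2 members called, 1 was called with no filter on low values, with median centring, with quantile normalization and with 2 groups in the fit, 5 with library set as a term (Rela and Rel higher and Relb lower in addition), 0 in set 1 alone and 7 in set 2 alone, and 1 to 3 without any 1 library. Over all genes, against 2719 called, 4550 were called with library set as a term, 68 in set 1 alone, 5102 in set 2 alone, and 1745 without HO replicate 2 and DHO replicates 8 and 9. No member called in DHO against WT with all libraries changed sign. Members not called there that did were Nfkbia (-0.00073 with a pseudocount of 0.1, -0.040 with median centring, -0.037 with quantile normalization, -0.33 in set 1 and -0.36 without those 3 libraries, where it was called at adjusted p = 0.0469, and -0.19 to 0.068 without any 1 library), Tnfaip3 (-0.30 in set 1, -0.22 without the 3, and -0.041 to 0.26 without any 1), and in set 1 also Nfkb1 (-0.080), Nfkb2 (-0.22) and Nfkbie (-0.12). Of the 18 ratio tests 11 passed, 9 in set 1 alone and 6 in set 2 alone. Those lost in set 1 were Tnfaip3 over Nfkbia in HO against WT (-0.63) and DHO against HO (0.67). In set 2 they were the same 2 (-0.62 and 0.89) and, in DHO against HO, Nfkb2 over Nfkb1 (-0.45), Relb over Rela (0.29) and Nfkbie over Nfkbib (-1.17), with exact permutation adjusted p from 0.0635 to 0.190. Ratios not called that changed sign were Rel over Rela in DHO against HO (-0.29) and Nfkbie over Nfkbib in DHO against WT (-0.083) without the 3 libraries, the latter also in set 1 (-0.22), and Nfkb2 over Nfkb1 in DHO against WT in set 2 (0.078). Without DHO replicates 8 and 9, 0 of the 7 differences between sets were called. The cause of these changes was not tested beyond the libraries removed.

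No paired analysis was possible because replicate numbers name libraries only in order of listing. Low FPKM values rest on few fragments, whose number is not given in the sources used here.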
